A study of Mus musculus with 16 samples.

Results

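Cells of the mouse colon sorted as fibroblasts, with high Gli1 reporter signal and the surface protein Sca1, were compared with cells of the same sort that lacked both. The comparison rests on 8 of the 16 arrays of the series, the 4 titled Sca1+Gli1ZsGreenhigh (called reporter-high below) and the 4 titled Sca1-Gli1ZsGreen- (called Sca1- below), chosen by their titles and covering all genes named by a probe set with 1 gene symbol. All cells came from C57BL/6 mice of the genotype Gli1CreERT2-ZsGreen, in which Cre fused to a tamoxifen-responsive receptor is made under Gli1 control and switches on the green fluorescent protein ZsGreen. Every mouse, of both groups compared, received 1 mg tamoxifen into the abdomen on each of 5 days and was sacrificed on day 6. No mouse without tamoxifen and no mouse without the reporter is among the samples, and the label records Cre activity over the injections, not the level of Gli1 at the sort. Both populations were gated as Epcam-CD45-CD31-gp38+ cells, so they share the exclusion of epithelial, blood and endothelial cells and the presence of gp38 (podoplanin). The labels take all 4 populations from the same 4 mice and give no age. The other populations, Sca1+Gli1ZsGreendim (reporter-dim) and Sca1+Gli1ZsGreen- (Sca1+ reporter-negative), had 4 arrays each and appear only where they bear on the comparison, which changes the Sca1 gate and the reporter gate together.

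Hedgehog ligands made by the gut epithelium bind Patched receptors on the underlying mesenchyme, which frees Smoothened and lets GLI transcription factors act. Gli1 is itself a target of this pathway and serves as a readout of cells that receive the signal, among them fibroblasts close to the epithelium and smooth muscle. Sca1 together with CD34 marks fibroblasts of the adventitia and of the deeper layers. The gut wall also holds interstitial cells of Cajal, the pacemaker cells of the muscle, which carry the receptor Kit and the calcium-activated chloride channel Ano1, and enteric glia and pericytes. Cells of these kinds could pass a gate that requires only gp38.

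Values are array signals recovered from the deposited scores. Differences are log2 reporter-high minus Sca1-, given ± SE, with the adjusted p of limma's moderated test over 17097 genes and a threshold of 0.05. The fit took all 16 arrays without pairing them by mouse, and mouse as a block is given as an alternative. Signals hold the array background, so a difference of a dim gene is too small. The number of arrays limits the precision. Array medians ran from 661 to 686, and the highest nonspecific control on an array from 234 to 488. A gene at or below that control on all 4 arrays of a population is said to be at background there, and its difference is then given as at least a fold.

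The labels of mouse 2 did not match its arrays. Eif2s3y, a Y-linked gene, read 3111 on the reporter-high and 3095 on the reporter-dim array of mouse 2, but 146 and 197 on its Sca1+ reporter-negative and Sca1- arrays. Xist, the RNA of the inactive X, read 487, 424, 18116 and 19209 in the same order. The arrays of each other mouse were alike in both genes. The 4 arrays labelled mouse 2 thus did not come from 1 animal, and counts of mice rest on the labels. Eif2s3y read 2901 to 3059 on the arrays of mouse 1 and 137 to 161 on those of mice 3 and 4. The reporter-high arrays of mice 1 and 2 thus carried it, but among Sca1- arrays only that of mouse 1 did. The groups were not balanced for sex, and its part in the differences was not tested. Results are given without mouse 2 where that changes a call or moves a count more than 1.5 times. The Sca1- array of mouse 1 stood apart from the other Sca1- arrays, with a higher signal of many fibroblast genes and the lowest epithelial signal of its group. Genes below were named by a fixed rule of size within lists, and Eif2s3y, Xist and those said to be outside the rule were named in addition.

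Reporter-high and Sca1- cells differed in 6143 of 17097 genes (35.9%), of which 3283 (19.2%) were higher and 2860 (16.7%) lower in reporter-high cells. At least a 2-fold difference was reached by 1643 genes (9.61%), 760 of them higher (4.45%) and 883 lower (5.16%). Over all genes the median difference was -0.01, and 0.46 when arrays were scaled to their hybridization controls, under which 12458 genes were higher and 917 lower (93.1% of calls higher against 53.4%). A list whose direction turns under that scaling is named as such below. Counts of list members in this comparison stand against the shares of all genes called, 19.2% higher and 16.7% lower. Without mouse 2 the count of differing genes was 3838. The lowest count with any other mouse or single array left out was 4349, without mouse 4, and the highest 6856, without the Sca1- array of mouse 1. The arrays of the 2 groups did not overlap in 5367 of 17097 genes, 4794 of them among the 6143 called. A lack of overlap is thus usual for a called gene here. Of 419 genes (2.45%) that differed between Sca1+ reporter-negative and Sca1- cells, where only the Sca1 gate changes (the Sca1 step below; 1.22% higher and 1.23% lower), 177 were higher and 165 lower in both comparisons, which share the Sca1- arrays. The count of the Sca1 step was 635 with mouse as a block, 155, 228 and 133 without mouse 2, 3 or 4, and 789 and 265 without the Sca1- array of mouse 1 or 4. It was 116 with only the 8 arrays of that step and 28 with the deposited scores in place of the signals.

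Epithelial transcripts moved with the comparison despite the gate against Epcam. Of 22 measured colon epithelium genes, 0 were higher and 22 lower in reporter-high cells (19.2% and 16.7% among all genes), with a median of -2.50. Without mouse 2, 21 were lower. Their mean log2 signal was 10.28, 10.13, 12 and 11.03 in the reporter-high arrays of mice 1 to 4 and 12.57, 13.49, 13.75 and 13.40 in the Sca1- arrays. No array of the first group reached the second, and no marker of the list was at background. Epcam, the adhesion protein whose surface form was gated out, read 2010, 1698, 6869 and 3312 against 10080, 18924, 21786 and 18565 (-2.49 ± 0.39, adjusted p = 0.000191). Between Sca1+ reporter-negative and Sca1- cells the list showed 0 calls and a median of 0.02. With the mean of the epithelium list as a covariate, 231 genes differed between reporter-high and Sca1- cells. Of these, 180 were also called without the covariate with an unchanged sign (74 higher, 106 lower). Of all 231, 107 were called in the Sca1 step too. Of the genes given here with their difference without the covariate, 81 lost their call with it at an unchanged sign, Gli1 (0.93, adjusted p = 0.243) and Pdpn (0.62, adjusted p = 0.457) among them, and 4 changed sign. The covariate and the populations overlap closely. Within each population the arrays with the Y-linked signal of Eif2s3y had the lowest epithelial means, so the covariate runs with sex as well. The fit with the covariate also called the sex-linked Xist (8.93, adjusted p = 0.0249) and Eif2s3y (-7.75, adjusted p = 0.0159). Neither was called without it (adjusted p = 0.533 and 0.668), so a call with the covariate is a weak guide. How far the epithelial signal accounts for the remaining differences was not tested. The ratio of 3' to 5' signals of Actb, a measure of RNA length after amplification, was 1.22 to 1.29 in reporter-high and 1.06 to 1.18 in Sca1- arrays.

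Gli1 read 2453, 2978, 2759 and 2255 in reporter-high cells of mice 1 to 4 and 1384, 865, 749 and 684 in Sca1- cells. All reporter-high arrays were above all Sca1- arrays, and the Sca1- array of mouse 1 was the highest of its group (1.55 ± 0.21, adjusted p = 6.78e-05). Pdpn, the gp38 gene required of every cell, read 7556, 8788, 5982 and 7651 against 3878, 1674, 1590 and 1643 (1.87 ± 0.26, adjusted p = 7.84e-05). The gate asked for the same protein in both, yet its transcript was higher in reporter-high cells. Pecam1 (CD31) was lower in reporter-high cells at 790, 909, 1067 and 1111 against 7099, 3938, 2570 and 2988 (-1.99 ± 0.32, adjusted p = 0.000235). Ptprc (CD45) read 346, 331, 573 and 620 against 793, 1166, 679 and 961 (-0.97 ± 0.31, adjusted p = 0.0238). That call was lost without mouse 1 (adjusted p = 0.0846), without mouse 2 (0.208), and without any of the reporter-high arrays of mice 1 and 2 or the Sca1- arrays of mice 2 and 4 (0.0568 to 0.0783). Ly6a, the gene of Sca1, carried no probe set with its symbol, so its level was not used here.

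Both populations carried transcripts of fibroblasts, and most of those given here were higher in reporter-high cells. Dcn, the proteoglycan decorin, read 96464 to 109863 in reporter-high and 62124 to 89414 in Sca1- cells (0.54 ± 0.10, adjusted p = 0.000574), and Col3a1, a fibrillar collagen, did not pass the test (-0.12 ± 0.08, adjusted p = 0.266). The probe sets of Col3a1 disagreed: that of largest variance differed by 1.97, and the median of its probe sets by 0.93. Thy1, a surface protein of many fibroblasts, read 2696, 2474, 2351 and 2412 against 1372, 680, 621 and 511 (1.75 ± 0.22, adjusted p = 4.96e-05). Pdgfrb, a growth factor receptor of fibroblasts and pericytes, was also higher (1.14 ± 0.16, adjusted p = 0.000111). Thy1 was below the array median on the Sca1- arrays of mice 2 to 4. Dcn, Col3a1, Thy1 and Pdgfrb were named outside the rule.

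The largest difference of all genes tested was that of Kit. Kit, the stem cell factor receptor of interstitial cells of Cajal, read 209, 204, 302 and 214 in reporter-high cells and 4305, 3296, 2433 and 5249 in Sca1- cells. The groups were far apart, and no reporter-high array came near the lowest Sca1- array (-4.00 ± 0.23, adjusted p = 1.4e-07). Kit was called lower in Sca1+ reporter-negative cells too (-2.78, adjusted p = 8.7e-06), and it remained called with the epithelium covariate (-3.51, adjusted p = 0.00134).

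Ano1, the chloride channel that paces these cells, read 2892, 2561, 3790 and 2802 in reporter-high cells and 18015, 13960, 13884 and 20441 in Sca1- cells (-2.46 ± 0.21, adjusted p = 4.09e-06). Prkcq, a protein kinase C isoform used as a further marker of the same cells, read 475, 553, 571 and 554 against 3141, 2873, 1948 and 3646 (-2.40 ± 0.14, adjusted p = 1.4e-07). In both genes the groups were separated by a wide gap. Of 7 measured interstitial cell of Cajal genes, 5 were lower and 1 higher in reporter-high cells, with a median of -2.40, and the counts were the same without mouse 2. The higher one was Cd34, which marks other fibroblasts too and is described with them. In the Sca1 step 4 were lower and 1 higher. The transcription factor Etv1, named outside the rule like Gja1, was lower at 1444, 1706, 1129 and 1270 against 2457, 2387, 1949 and 2798 (-0.79 ± 0.25, adjusted p = 0.0209), with no overlap between groups. Its call was lost without mouse 3 (0.0592) or mouse 4 (0.153), and also when mouse 3's (0.058) or mouse 4's (0.0505) reporter-high array or mouse 4's Sca1- array (0.0612) was left out. Gja1, a gap junction protein, did not pass the test (-0.05, adjusted p = 0.901). Thbs4, the remaining lower member (-2.73 ± 0.35, adjusted p = 5.83e-05), differed by 0.03 in the Sca1 step and by -0.54 with the epithelium covariate (adjusted p = 0.338), unlike Kit, Ano1 and Prkcq.

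The promoters of Kit and Ano1, the 2 genes that define interstitial cells of Cajal, are shown from 250 bases before to 50 after the annotated start (RefSeq, GRCm38.p6, in the direction of the gene). Kit lies at chr5:75574737-75575036 on the plus strand and Ano1 at chr7:144738524-144738823 on the minus strand. Neither held any of the 3 motifs searched on both strands, so both are in lower case throughout.
Kit: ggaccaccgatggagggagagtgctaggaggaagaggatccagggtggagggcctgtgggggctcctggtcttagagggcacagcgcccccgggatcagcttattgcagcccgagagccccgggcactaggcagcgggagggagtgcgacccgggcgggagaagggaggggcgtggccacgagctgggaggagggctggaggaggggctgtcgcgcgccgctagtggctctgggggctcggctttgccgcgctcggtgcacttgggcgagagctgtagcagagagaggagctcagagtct
Ano1: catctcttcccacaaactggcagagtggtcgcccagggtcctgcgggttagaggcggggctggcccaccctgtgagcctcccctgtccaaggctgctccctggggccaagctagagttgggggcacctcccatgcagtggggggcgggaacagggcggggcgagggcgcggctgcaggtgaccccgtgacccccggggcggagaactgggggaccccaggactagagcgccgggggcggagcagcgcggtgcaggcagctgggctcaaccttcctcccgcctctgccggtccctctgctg

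The motifs were ACCACCCA, the 3' part of the GLI consensus, found in 1.476% of the 32851 promoters in the table, CCGGAAGT, an ETS site found in 3.887%, and the CArG box of serum response factor, found in 1.629%. The CArG box was searched as CC and GG with a fixed run of only A or T between them. Each motif had to match exactly. The motifs do not overlap one another in letters. Promoters were found for 7 of the interstitial cell of Cajal genes, and 0 of the 7 held any of the 3.

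Kcna1, a voltage-gated potassium channel, read 596, 732, 857 and 1393 in reporter-high and 28057, 8164, 12667 and 11275 in Sca1- cells (-3.98 ± 0.30, adjusted p = 1.43e-06), with the Sca1- array of mouse 1 highest. Its relative Kcna2 was at background in reporter-high cells and at least 9.74-fold higher in Sca1- cells, where it read 6044, 1834, 1894 and 2273 (adjusted p = 2.96e-06). Chodl, a membrane lectin-like protein, read 285, 258, 380 and 287 against 6129, 2836, 2256 and 5551 (-3.68 ± 0.26, adjusted p = 7.24e-07). These genes were low in every reporter-high array and high in every Sca1- array. Tmem229a (-2.91 ± 0.16), Enpep, an aminopeptidase (-2.88 ± 0.25), Slc35f1 (-2.86 ± 0.26) and Gfra1, a receptor for glial cell line-derived neurotrophic factor (-3.66 ± 0.44), completed the 8 largest falls also called in the Sca1 step. In that step their differences ran from -3.26 for Kcna1 to -2.06 for Enpep, and Gfra1 read 2902 on the Sca1+ reporter-negative array of mouse 2 against 505 to 1017 on the others. The 8 include Kit, and all 8 remained called with the epithelium covariate (adjusted p from 0.000289 to 0.0448).

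**Figure D1:**
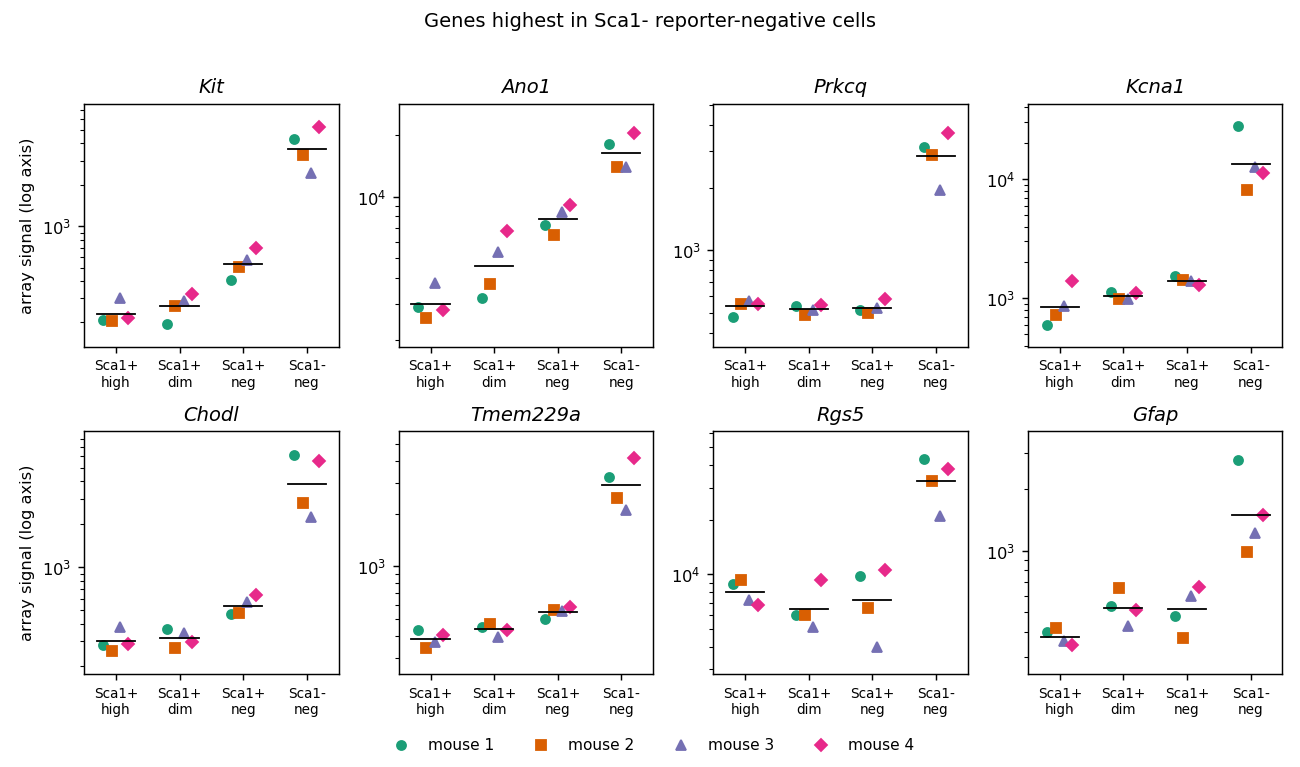
Signal (log axis) of Kit, Ano1, Prkcq, Kcna1, Chodl, Tmem229a, Rgs5 and Gfap on each array, by population, with 1 marker and colour per mouse and a black bar at the mean of the log2 signals. The 4 Sca1- arrays lie above all reporter-high arrays in every panel; Kit reads 2433 to 5249 in Sca1- and 204 to 302 in reporter-high cells.

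Gfap, the intermediate filament of enteric glia, read 398, 417, 360 and 343 in reporter-high and 2765, 980, 1218 and 1486 in Sca1- cells (-1.98 ± 0.26, adjusted p = 5.97e-05). S100b, a calcium-binding glial protein, was at background in reporter-high cells and at least 2.78-fold higher in Sca1- cells at 1264, 653, 532 and 724 (adjusted p = 2.21e-05). Neither gene's groups overlapped, and in both the Sca1- array of mouse 1 was highest. Of 14 measured glia and neuron genes, 6 were lower and 3 higher, with a median of -0.17 that turned to 0.30 when arrays were scaled to their hybridization controls. The higher count was 1 without mouse 2, without mouse 3, without mouse 1's reporter-high array and without mouse 4's Sca1- array. Rgs5, a regulator of G-protein signalling that marks pericytes, read 8877, 9288, 7221 and 6794 against 43305, 32743, 21047 and 37880 (-2.03 ± 0.29, adjusted p = 9.68e-05), with no overlap. Anpep, an aminopeptidase on the same list, went the other way (1.78 ± 0.19, adjusted p = 1.47e-05). Among 11 pericyte markers 2 were higher and 3 lower (median -0.36, turning to 0.11 with the hybridization controls). The lower count was 1 without mouse 2, and 5 with mouse as a block or without the Sca1- array of mouse 3, and the higher count was 1 without mouse 3.

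Of 23 ion channel genes, 9 were lower and 2 higher in reporter-high cells, with a median of -0.19 that turned to 0.28 under the hybridization scaling. The higher count was 4 without mouse 1 or the Sca1- array of mouse 1, and 1 without mouse 3. Kcnn3, the small-conductance potassium channel of PDGFRA+ cells in the muscle and named outside the rule, read 7178, 6030, 4943 and 5754 against 18150, 13447, 9721 and 18910 (-1.30 ± 0.18, adjusted p = 7.8e-05). Piezo1, a mechanically gated channel also named outside the rule, was 1.17 ± 0.11 higher in reporter-high cells (adjusted p = 8.14e-06). Kcnd3, a transient potassium channel, did not order with the gates. It read 3287, 3584, 2479 and 2623 in reporter-high cells, 449 to 1655 in Sca1+ reporter-negative cells and 20453, 7142, 4524 and 8670 in Sca1- cells, so the reporter-high arrays lay between these groups without overlap (-1.56 ± 0.41 against Sca1- cells, adjusted p = 0.00801, 0.0711 without mouse 4 and 0.0987 on the deposited scores).

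Of 32 Hox genes, which encode position along the body axis, 13 were lower and 1 higher in reporter-high cells, with a median of -0.28; scaled to hybridization controls, 5 were lower and 13 higher with a median of 0.19. Hoxb3 read 709, 568, 676 and 543 against 2317, 1405, 1174 and 2058 (-1.43 ± 0.17, adjusted p = 3.24e-05) and was called in the Sca1 step as well (-1.14, adjusted p = 0.00131). Its groups did not overlap. Hoxb13, the most posterior HoxB gene, had the largest difference of the family (-2.89 ± 0.41, adjusted p = 9.24e-05), but its Sca1 step was 0.06 and its difference with the epithelium covariate -0.36 (adjusted p = 0.635). Hoxa11, named outside the rule, was the higher gene (1.02 ± 0.19, adjusted p = 0.000825).

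Rnf128, Pof1b, Akr1c14, Hao2, Perp, Cldn23 and Sult1d1, the rest of the 12 largest falls, ranged from -3.55 to -3.33. Pof1b, an actin-binding protein of epithelia, read 327, 341, 1008 and 399 in reporter-high and 3499, 5665, 5922 and 6080 in Sca1- cells (-3.49 ± 0.32, adjusted p = 6.05e-06), while its Sca1 step was -0.13. The reporter-high array of mouse 3 was the highest of its group, as it was for the epithelium list. All 17 absorptive colonocyte genes were lower (median -2.05; 10 without mouse 2), and of 16 goblet cell genes 13 were lower and 1 higher (median -1.67; 6 lower without mouse 2).

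Of 18 blood endothelium genes, 11 were lower and 1 higher (median -0.67), with 6 lower without mouse 2, 2 higher without mouse 1, without its Sca1- array or with mouse as a block, and 3 higher and 2 lower under the hybridization scaling. Of 6 lymphatic genes 4 were lower and 0 higher (median -1.28). Lyve1, the hyaluronan receptor of lymphatic vessels, read 1327, 1079, 1455 and 1501 against 13771, 4029, 2585 and 3693 (-1.85 ± 0.41, adjusted p = 0.00226), the Sca1- array of mouse 1 being far above the rest. Tek, the angiopoietin receptor and the 1 higher endothelial gene, read 5472, 3889, 3352 and 3366 against 2478, 1009, 979 and 968 (1.67 ± 0.28, adjusted p = 0.000362). Of 26 leukocyte genes 9 were lower, Kit of the interstitial cell of Cajal list among them, and 0 higher (median -0.26, with 5 lower without mouse 2). Of 13 mesothelial genes 4 were lower and 0 higher (median -0.20). Under the hybridization scaling these medians turned to 0.21 (12 higher, 3 lower) and 0.27 (6 higher, 3 lower). Lyz2, the lysozyme of myeloid cells, was lower (-1.31 ± 0.28, adjusted p = 0.00196).

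Of 29 proliferation genes 20 were lower and 0 higher (median -0.72), with 12 lower without mouse 2, 1 higher without the Sca1- array of mouse 2, and 8 lower and 2 higher under the hybridization scaling. Mki67, the Ki-67 antigen of cycling cells, read 702, 789, 1583 and 1175 against 2083, 5373, 4342 and 3454 (-1.84 ± 0.35, adjusted p = 0.000803). Of 22 respiratory chain genes 21 were lower and 0 higher (median -0.69). Uqcrc2, a core subunit of complex III, read 8493, 9378, 9787 and 9033 against 15968, 19058, 19159 and 19544 (-1.0 ± 0.09, adjusted p = 4.55e-06), with the groups well apart. The respiratory list showed 4 calls, all lower, under the hybridization scaling, and 1 with the epithelium covariate. In these sorted mixtures fewer cells of a type and less RNA per cell cannot be told apart. The part of the epithelial signal in the colonocyte, proliferation and respiratory chain lists was not tested, beyond their medians of 0.00, 0.05 and -0.17 with the covariate.

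Scara5, a ferritin receptor, read 15441, 13068, 13641 and 16661 in reporter-high and 3385, 1308, 2348 and 965 in Sca1- cells (3.04 ± 0.29, adjusted p = 6.84e-06). Pcolce2, an enhancer of procollagen processing, read 9716, 8272, 7769 and 10219 against 1826, 1085, 1152 and 975 (2.87 ± 0.18, adjusted p = 1.64e-07). In both, the reporter-high arrays were close to one another and all above the Sca1- arrays. Scara3, another scavenger receptor family member, differed by 2.76 ± 0.19 (adjusted p = 7.24e-07), Has2, a hyaluronan synthase, by 2.83 ± 0.38 (adjusted p = 7.52e-05) and Sfrp2, a secreted Wnt-binding protein, by 2.71 ± 0.36 (adjusted p = 6.91e-05).

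Scara5, Pcolce2, Scara3, Has2, Sfrp2, Cadm3, Mfap5 and Emilin2 were the 8 largest rises also called in the Sca1 step, where their differences ran from 1.43 for Cadm3 to 2.55 for Scara5. Aard, Agtr1a, an angiotensin receptor, Nova1, a splicing factor, and Ereg, an EGF receptor ligand, were among the 12 largest rises and were not called in that step (0.88 to 1.39, adjusted p from 0.0802 to 0.198). Aard read 2056, 2637, 1862 and 2171 in reporter-high cells, 1552 to 2145 in reporter-dim, 428 to 1226 in Sca1+ reporter-negative and 543, 372, 238 and 267 in Sca1- cells. Both reporter-labelled populations lay above the other 2 groups. With the epithelium covariate Scara5, Pcolce2, Scara3 and Emilin2 remained called (adjusted p from 0.00268 to 0.0455). Has2, Sfrp2, Cadm3 and Mfap5 lost their calls with it (0.167 to 0.286), as did Aard, Agtr1a, Nova1 and Ereg (0.122 to 0.625).

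**Figure D2:**
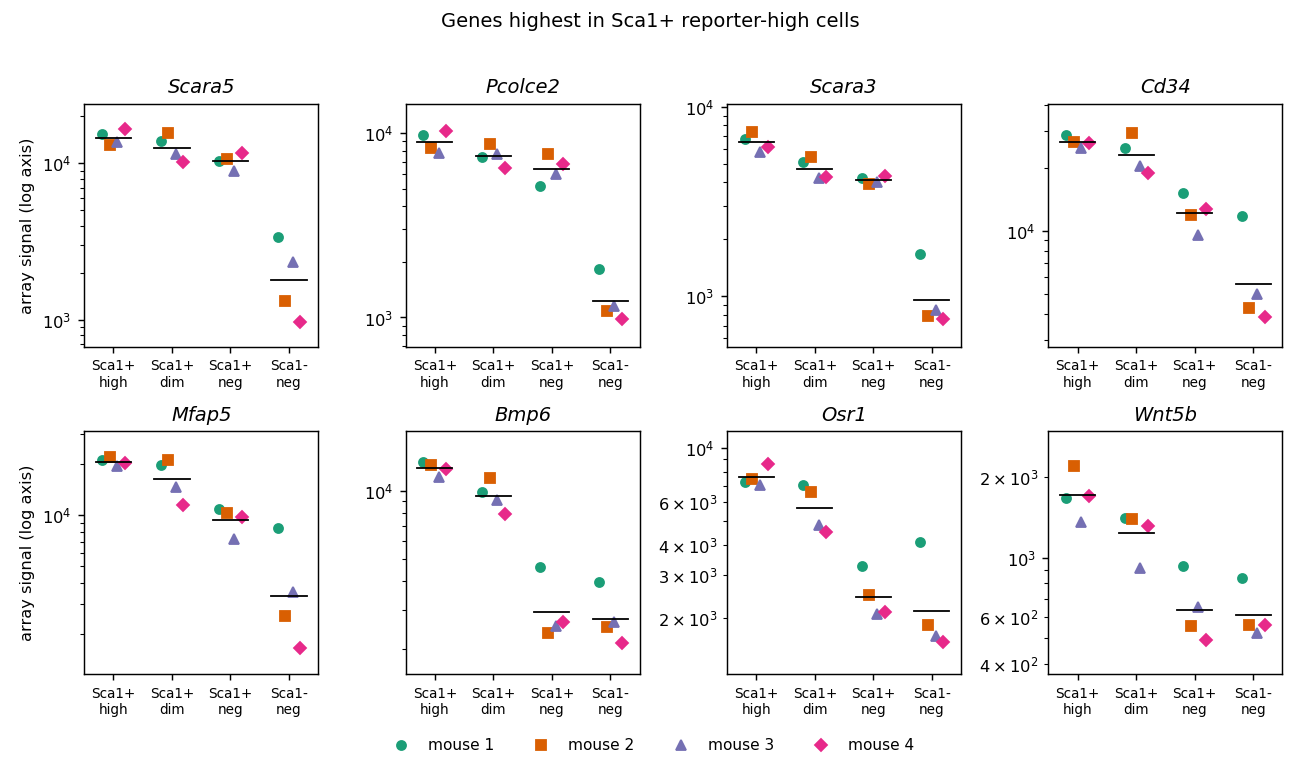
Signal (log axis) of Scara5, Pcolce2, Scara3, Cd34, Mfap5, Bmp6, Osr1 and Wnt5b on each array, by population, with 1 marker and colour per mouse and a black bar at the mean of the log2 signals. The 4 reporter-high arrays lie above all Sca1- arrays in every panel, and Scara5 and Pcolce2 are also raised in Sca1+ reporter-negative cells.

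Markers of adventitial CD34+ fibroblasts were higher in 15 of 19 cases and lower in 2 (median 1.38); without mouse 2, 13 were higher and 0 lower. Cd34, the sialomucin that names them, read 28656, 26796, 24973 and 26240 against 11794, 4260, 5001 and 3853 (2.26 ± 0.27, adjusted p = 3.42e-05), and the Sca1- array of mouse 1 was well above the other Sca1- arrays. Ackr3, an atypical chemokine receptor (2.38 ± 0.32), Clec3b, tetranectin (2.27 ± 0.19), and Cd248, endosialin (2.22 ± 0.20), moved with it. These 4 were called in the Sca1 step as well, by 1.13 to 1.37. Of 18 lamina propria fibroblast markers 14 were higher and 3 lower (median 1.14; 1 lower without mouse 1 or 2), and of 23 markers of PDGFRA-high fibroblasts below the epithelium 16 were higher and 2 lower (median 1.07; 1 lower without mouse 2). The 3 fibroblast lists thus moved the same way, and they share members with other lists. With the epithelium covariate 3, 1 and 1 of their genes remained called.

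Elastic fibre and crosslinking genes were higher in 15 of 16 cases (median 1.55), proteoglycan and hyaluronan genes in 15 of 21 (median 0.92), and matrix proteases and their inhibitors in 17 of 25 (median 0.95), with 0 lower in each. Mfap5, a microfibril protein, read 21114, 21937, 19638 and 20432 against 8447, 2548, 3537 and 1648 (2.63 ± 0.35, adjusted p = 7.33e-05). Efemp1, fibulin 3, read 24527, 24911, 23045 and 23687 against 11677, 4246, 5761 and 3233 (2.12 ± 0.28, adjusted p = 6.91e-05). Reporter-high arrays were nearly equal in both, and the spread lay in the Sca1- group.

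Vcan, the large hyaluronan-binding proteoglycan versican (2.26 ± 0.34), Spon1, spondin 1 (1.62 ± 0.17), and Adamts5, an aggrecan-degrading protease (1.97 ± 0.30), were also higher, each with no overlap between groups. Of 19 fibrillar collagens 13 were higher and 2 lower (median 0.83). Col14a1, which binds fibril surfaces, read 22948, 18975, 18415 and 22818 against 7526, 3819, 3517 and 2561 (2.37 ± 0.23, adjusted p = 9.91e-06). The lower collagen count was 1 without mouse 2 or 4, any 1 of the reporter-high arrays of mice 2 to 4, or either of the Sca1- arrays of mice 2 and 4. Basement membrane genes split by chain: of 20, 12 were higher and 3 lower (median 0.90). Lama2, the laminin chain of mesenchymal basement membranes, was higher (31284, 30968, 22363 and 25275 against 14386, 6365, 6275 and 7091, 1.77 ± 0.27, adjusted p = 0.000188). Lama3 (-2.18 ± 0.25, adjusted p = 2.89e-05) and Lamb3 (-2.28 ± 0.38, adjusted p = 0.000316), chains of epithelial laminin 332, were lower. With the epithelium covariate Lama3 differed by -1.06 (adjusted p = 0.188) and Lamb3 by 0.03 (adjusted p = 0.985).

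Most Hedgehog receptors and effectors were higher in reporter-high cells. Of 15 receptors and effectors 9 were higher and 1 lower (median 0.77), and 0 were higher and 1 lower in the Sca1 step. Without mouse 2 the counts were 7 and 1. Ptch1, the receptor and target that restrains Smoothened, read 35470, 35729, 29213 and 23242 against 19777, 7373, 6922 and 9057 (1.64 ± 0.42, adjusted p = 0.00696), without overlap, but its call was lost without mouse 2 (adjusted p = 0.0745). Smo, the transducer itself, differed by 0.77 ± 0.14 (adjusted p = 0.000726), and Gpr161, a ciliary receptor that dampens the pathway, by 1.49 ± 0.27 (adjusted p = 0.000592).

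Gli2, the main activating GLI factor, read 6950, 6396, 6224 and 6601 against 2796, 1222, 1223 and 1260 (2.11 ± 0.22, adjusted p = 1.29e-05). Gli3, mostly a repressor, was higher by 0.91 ± 0.14 (adjusted p = 0.000131). Sufu, which holds GLI proteins in the cytoplasm, read 1020, 1027, 995 and 928 against 610, 644, 547 and 497 (0.79 ± 0.08, adjusted p = 1.4e-05), a small difference with little spread. Sufu was the only member still called with the epithelium covariate (0.76, adjusted p = 0.043).

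Hhip, a secreted decoy for Hedgehog ligands, read 10852, 14642, 18425 and 18596 in reporter-high and 10133, 6699, 4486 and 3780 in Sca1- cells. The groups nearly met in mouse 1 (1.39 ± 0.36, adjusted p = 0.00674), and the call was lost without mouse 3 (0.0632) or mouse 4 (0.0923) and on the deposited scores (0.0759). Sca1+ reporter-negative cells had the least Hhip, at 1214 to 3990, and were lower than Sca1- cells (-1.69 ± 0.36, adjusted p = 0.0188). Cdon, a co-receptor that helps ligand binding, was the lower member at 831, 863, 1067 and 959 against 1343, 1144, 1190 and 1293 (-0.42 ± 0.10, adjusted p = 0.00274), which became 0.05 under the hybridization scaling and did not pass on the deposited scores (adjusted p = 0.0526). Smo, Gli3, Sufu and Cdon were named outside the rule. The median of 3 ligand genes was -0.09 and turned to 0.38 (2 higher, 1 lower) under the hybridization scaling. Only Ihh, the ligand of colonic epithelium, passed, and it was lower (-1.54 ± 0.25, adjusted p = 0.000271; -0.20 with the epithelium covariate, adjusted p = 0.849).

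**Figure D3:**
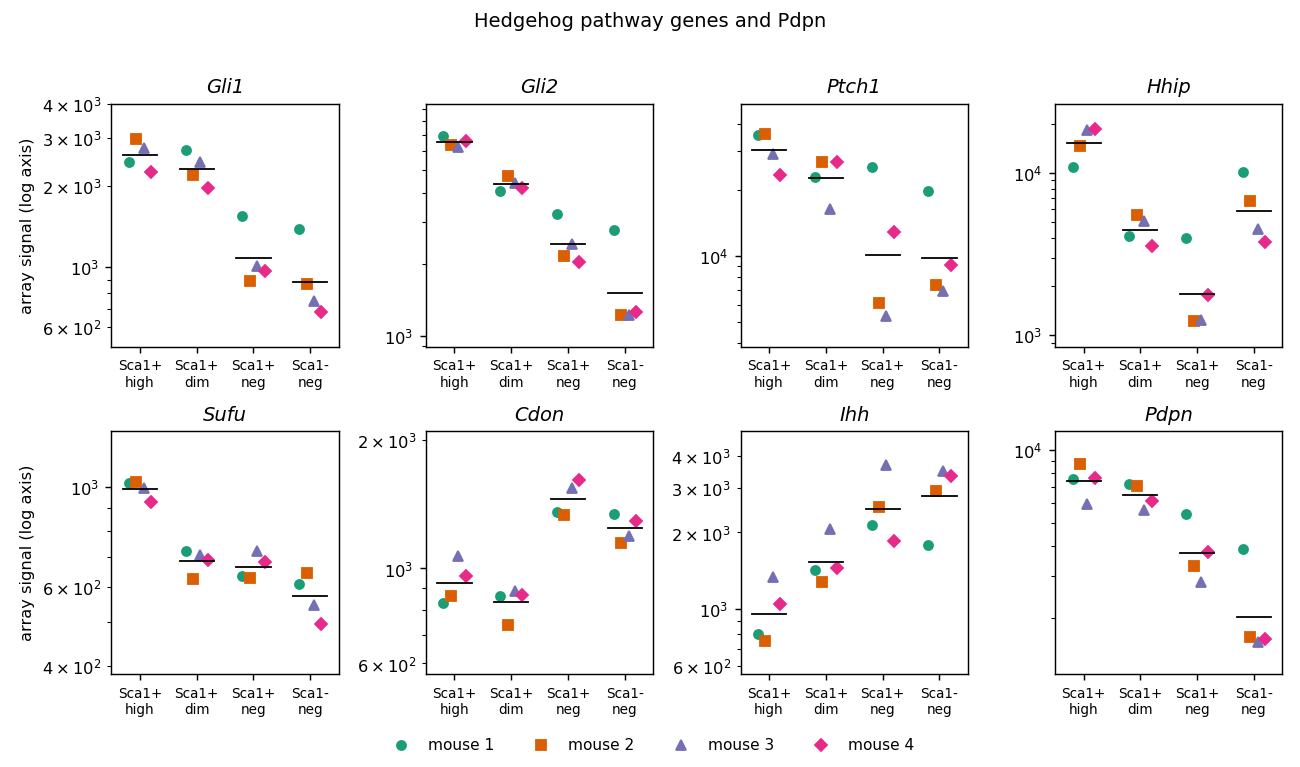
Signal (log axis) of Gli1, Gli2, Ptch1, Hhip, Sufu, Cdon, Ihh and Pdpn on each array, by population, with 1 marker and colour per mouse and a black bar at the mean of the log2 signals. Gli2 steps down from reporter-high (6224 to 6950) to Sca1- cells (1222 to 2796), while Hhip is on average lowest in Sca1+ reporter-negative cells, and Cdon (in this scaling) and Ihh are lower in reporter-high than in Sca1- cells.

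Transcription factors of the gut mesenchyme were mostly higher: 17 of 25 were higher and 1 lower (median 1.09). Foxf2, a forkhead factor induced by Hedgehog in gut mesenchyme, read 6796, 7357, 7193 and 6037 against 4198, 1505, 1130 and 1082 (2.03 ± 0.39, adjusted p = 0.000898). Osr1 read 7287, 7457, 7092 and 8623 against 4124, 1874, 1693 and 1598 (1.83 ± 0.25, adjusted p = 8.69e-05). In both genes the Sca1- array of mouse 1 lay between its group and the reporter-high arrays. Nr2f1, an orphan nuclear receptor, read 887, 699, 890 and 875 in reporter-high cells and was at background in the other group, a difference of at least 2.36-fold (adjusted p = 8.43e-06).

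Ebf1, a factor of stromal progenitors, was higher in reporter-high cells (1.94 ± 0.22, adjusted p = 2.64e-05) and in Sca1+ reporter-negative cells (1.59, adjusted p = 0.000768), that is, on both Sca1+ sides. Prrx1, named outside the rule like Ebf2 and Ebf3 in the plot of genes by population, read 1186 to 4229 in Sca1+ reporter-negative cells, against 833 to 1171 in reporter-high and 382 to 633 in Sca1- cells (1.15 ± 0.30 for reporter-high against Sca1-, adjusted p = 0.00697, 0.0704 without mouse 4 and 0.0597 on the deposited scores). Nkx3-2, the lower factor and also outside the rule, read 462, 344, 381 and 377 against 850, 577, 548 and 770 (-0.80 ± 0.14, adjusted p = 0.000535) and was lower in the Sca1 step too (-1.05, adjusted p = 0.000628). Without the Sca1- array of mouse 4, 2 factors were lower.

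Of 9 BMP ligands 7 were higher and 2 lower (median 1.30), and without mouse 2 the counts were 5 and 0. The lower count was 1 without mouse 1 or 4, the reporter-high array of mouse 1 or 2, or the Sca1- array of mouse 3 or 4. Bmp6 read 13345, 13039, 11529 and 12451 against 3954, 2521, 2645 and 2131 (2.20 ± 0.21, adjusted p = 6.47e-06). Bmp5 (1.96 ± 0.32, adjusted p = 0.000269), Bmp4 (1.76 ± 0.30, adjusted p = 0.00034) and Bmp7 (1.66 ± 0.27, adjusted p = 0.000241) were higher too. None of the BMP ligands was called in the Sca1 step.

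Of 13 BMP antagonists 6 were higher and 2 lower (median 0.12), with 1 lower if mouse 2, mouse 4 or mouse 1's reporter-high array was left out. Grem1, which binds BMP ligands near the crypt base, read 9949, 10342, 7042 and 7891 against 4882, 1742, 1485 and 1508 (2.06 ± 0.34, adjusted p = 0.000304). Sostdc1, an antagonist named outside the rule, read 362, 352, 364 and 459 against 1228, 943, 623 and 863 (-1.22 ± 0.16, adjusted p = 7.4e-05). The groups did not overlap in either gene, so antagonists moved both ways. Among 7 response genes 2 were higher and 2 lower, with 4 higher without mouse 1 or its Sca1- array and 1 higher without mouse 4: Id3 differed by 1.19 ± 0.20 (adjusted p = 0.000318) and Id1 by -1.23 ± 0.17 (adjusted p = 9.45e-05).

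Of 23 Wnt ligands and R-spondins 6 were higher and 2 lower (median 0.04; 6 and 0 without mouse 2). Leaving out mouse 1's reporter-high array or mouse 4's Sca1- array also gave 0 lower genes, and leaving out mouse 1, mouse 4 or either array of mouse 2 gave 1. Wnt4 read 7334, 7373, 7322 and 8233 against 2488, 1827, 1827 and 1362 (2.04 ± 0.17, adjusted p = 3.03e-06) and remained called with the epithelium covariate (1.70, adjusted p = 0.0189). Wnt5a (1.95 ± 0.28, adjusted p = 0.000104), Wnt2b (1.67 ± 0.16, adjusted p = 9.61e-06) and Wnt5b (1.49 ± 0.21, adjusted p = 9.88e-05) were the other leading members. Wnt4 and Wnt5a were called in the Sca1 step (0.90 and 1.15), while Wnt2b and Wnt5b were not (0.37 and 0.07). Of 11 secreted Wnt inhibitors 4 were higher and 1 lower (median -0.07, with 2 and 0 without mouse 2). Of 12 Wnt response genes 2 were higher and 3 lower (median -0.10), against shares of 19.2% and 16.7% among all genes. The latter lower count was 1 without mouse 2 or 4 and without the reporter-high or the Sca1- array of either. Both medians turned under the hybridization scaling, to 0.40 (9 higher, 0 lower) for the inhibitors and 0.37 (8 higher, 1 lower) for the response genes.

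Of 11 TGF-beta ligands, receptors and binding proteins 9 were higher and 0 lower (median 1.14), with Tgfbr3, betaglycan, at 28795, 27580, 28406 and 29846 against 14199, 7596, 7579 and 6890 (1.73 ± 0.18, adjusted p = 1.65e-05). Of 14 PDGF and vascular factors 9 were higher and 1 lower (median 0.87), led by Hgf, hepatocyte growth factor (1.95 ± 0.25, adjusted p = 6.1e-05). With mouse 1, 2 or 4 left out the lower count was 0, as it was without mouse 2's or 4's reporter-high or mouse 1's Sca1- array, and 2 without mouse 3 or its reporter-high array. Of 9 IGF axis genes 6 were higher and 1 lower (median 1.26), with 0 lower without mouse 2, either of its arrays or the Sca1- array of mouse 1. Igfbp6, an IGF-II binding protein, read 13587, 12391, 10457 and 10895 against 3875, 1613, 1907 and 1591 (2.50 ± 0.23, adjusted p = 6.05e-06).

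Of 10 fibroblast growth factors 4 were higher and 2 lower (median 0.22), the lower count being 0 without mouse 3 or 4 or the Sca1- array of either, and 1 without mouse 2, either of its arrays or the reporter-high array of mouse 1 or 4. Fgf7, an epithelial mitogen, read 2840, 2498, 2587 and 2731 against 882, 593, 482 and 500 (2.16 ± 0.19, adjusted p = 4.64e-06). Of 9 EGF family ligands 2 were higher and 2 lower (median -0.12), against shares of 19.2% and 16.7% among all genes. The lower count was 1 without mouse 2 or 4, the Sca1- array of either or the reporter-high array of mouse 1. The hybridization scaling turned the median to 0.35 (5 higher, 1 lower). Nrg1, neuregulin 1, was higher (1.12 ± 0.19, adjusted p = 0.00034) and Hbegf lower (-2.57 ± 0.37, adjusted p = 0.000107), the latter by -0.25 with the epithelium covariate (adjusted p = 0.717).

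Immune signals were split. Of 24 chemokines 10 were higher and 4 lower (median -0.06, turning to 0.41 under the hybridization scaling), and in the Sca1 step 8 were higher and 0 lower. Cxcl14 read 3029, 3243, 2646 and 2159 against 1163, 649, 615 and 481 (1.99 ± 0.26, adjusted p = 6.1e-05). Cxcl1, a neutrophil attractant, read 26850, 24276, 15093 and 19849 against 13160, 5345, 5664 and 3906 (1.74 ± 0.31, adjusted p = 0.000469), and its Sca1 step was of the same size (1.79, adjusted p = 0.00397). Ccl11, eotaxin, was higher by 1.44 ± 0.22 (adjusted p = 0.000152) and by 1.30 in the Sca1 step (adjusted p = 0.00342).

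Of 18 inflammatory and acute-phase genes 9 were higher and 4 lower (median 0.39), and 9 were higher and 0 lower in the Sca1 step. The lower count was 1 without mouse 2, its reporter-high array or the Sca1- array of mouse 3, and 2 without mouse 4, the reporter-high array of mouse 1 or the Sca1- array of mouse 2. Il6, an interleukin of activated fibroblasts, read 5899, 5492, 3401 and 6963 against 3389, 747, 1317 and 331 (2.36 ± 0.53, adjusted p = 0.00259), the groups almost touching, and 3.05 in the Sca1 step (adjusted p = 0.00418). Of 12 complement genes 6 were higher and 1 lower (median 0.47), the lower count being 2 with mouse as a block, without mouse 3's reporter-high array or without mouse 1's Sca1- array. C1ra, a protease of the classical pathway, read 16133, 15214, 13192 and 16000 against 6475, 3207, 3449 and 3241 (1.95 ± 0.17, adjusted p = 4.32e-06).

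Of 13 lymphoid stromal genes 6 were higher and 0 lower (median 0.25), with 3 higher without mouse 2, and 1 lower without mouse 4 or the Sca1- array of mouse 2 or 4. Among them was Tnfsf13b, the B cell factor BAFF (1.84 ± 0.18, adjusted p = 9.01e-06). Of 16 interferon-stimulated genes 5 were higher and 2 lower (median 0.37), with 3 higher without mouse 2, 0 or 1 lower with any mouse or array left out, and 1 lower with mouse as a block. Of 11 antigen presentation genes 1 was higher and 0 lower (median -0.10, turning to 0.37 with 5 higher and 0 lower under the hybridization scaling). The number of lower genes was 4 without mouse 3, 2 without its Sca1- array, and 1 without mouse 4's reporter-high or mouse 1's Sca1- array.

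Contractile genes showed a difference whose calls changed with the mouse or array left out. Of 19 measured, 12 were higher and 0 lower in reporter-high cells (median 0.68). Hhip, described with the Hedgehog genes, is on this list too and was among the 12. Without mouse 2, 3 or 4 the higher counts were 2, 1 and 2, while the median without mouse 2 was 0.69. The higher count was 15 without the Sca1- array of mouse 1. Acta2, smooth muscle actin, read 26343, 31626, 39633 and 28207 against 25020, 13320, 11775 and 9953 (1.14 ± 0.31, adjusted p = 0.00912). The Sca1- array of mouse 1 came close to the reporter-high array of that mouse, and the call was lost without mouse 2 (0.0713), 3 (0.0758) or 4 (0.0815). Myh11, smooth muscle myosin, did not pass at 29150, 31806, 48343 and 34627 against 48464, 23790, 20109 and 19859 (0.44 ± 0.32, adjusted p = 0.312), with the Sca1- array of mouse 1 the highest of all 8. Myh11 was named outside the rule, and it passed without mouse 1 (0.83, adjusted p = 0.00862) and without the Sca1- array of mouse 1 (0.74, adjusted p = 0.0498).

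In the Sca1 step 0 were higher and 3 lower, Hhip among the 3. Set against Sca1+ reporter-negative cells, reporter-high cells, whose arrays both comparisons share, had 16 higher and 0 lower, where 30.9% of all genes were called (17% higher, 13.9% lower). Actg2, the enteric smooth muscle actin and named outside the rule, read 5310, 7762, 12423 and 8230 in reporter-high cells, 567 to 2590 in Sca1+ reporter-negative and 8141, 3511, 2724 and 3007 in Sca1- cells. Sca1+ reporter-negative arrays were below the reporter-high ones, and the other groups overlapped through the Sca1- array of mouse 1 (1.04 ± 0.44 for reporter-high against Sca1- cells, adjusted p = 0.0779). Actg2 passed without mouse 1 (1.60, adjusted p = 0.00103) and without its Sca1- array (1.39, adjusted p = 0.0151).

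Promoters are shown for Acta2 and Myl9, which held a motif in the 300 bases searched. Myl9, a regulatory myosin light chain named outside the rule, differed by 0.84 ± 0.28 (adjusted p = 0.0295), a call lost in 9 of 12 analyses that left out a mouse or an array: mouse 2, 3 or 4 or any of their arrays (adjusted p from 0.0517 to 0.178). Capitals mark ACCACCCA in Acta2, at positions 41 to 48 after the start (chr19:34255324-34255623, minus strand), and the CArG box in Myl9, 161 to 152 bases before it (chr2:156775214-156775513, plus strand).
Acta2: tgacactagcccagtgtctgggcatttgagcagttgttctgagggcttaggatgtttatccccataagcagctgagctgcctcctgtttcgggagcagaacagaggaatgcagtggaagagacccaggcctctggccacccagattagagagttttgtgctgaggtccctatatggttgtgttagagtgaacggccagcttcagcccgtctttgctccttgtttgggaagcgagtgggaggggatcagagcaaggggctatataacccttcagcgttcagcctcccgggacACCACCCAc
Myl9: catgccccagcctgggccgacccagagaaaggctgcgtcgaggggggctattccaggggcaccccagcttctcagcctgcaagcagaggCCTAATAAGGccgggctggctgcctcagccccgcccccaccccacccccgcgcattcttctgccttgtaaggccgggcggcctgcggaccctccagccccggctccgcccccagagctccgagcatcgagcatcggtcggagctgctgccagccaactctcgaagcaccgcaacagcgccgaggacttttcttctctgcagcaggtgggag

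Among 17 contractile genes with a promoter in the table, 1 held ACCACCCA (Acta2), 4 an exact CArG box (Actc1, Cnn2, Ldb3 and Myl9) and 0 CCGGAAGT. Near matches were not counted, such as ccctatatgg and ccttgtttgg in Acta2, which depart from the CArG pattern by 1 letter each. Among 12 Hedgehog genes with one, 0 held ACCACCCA, 0 a CArG box and 1 CCGGAAGT (Disp1). A match is a description of the letters and not a binding site.

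**Figure D4:**
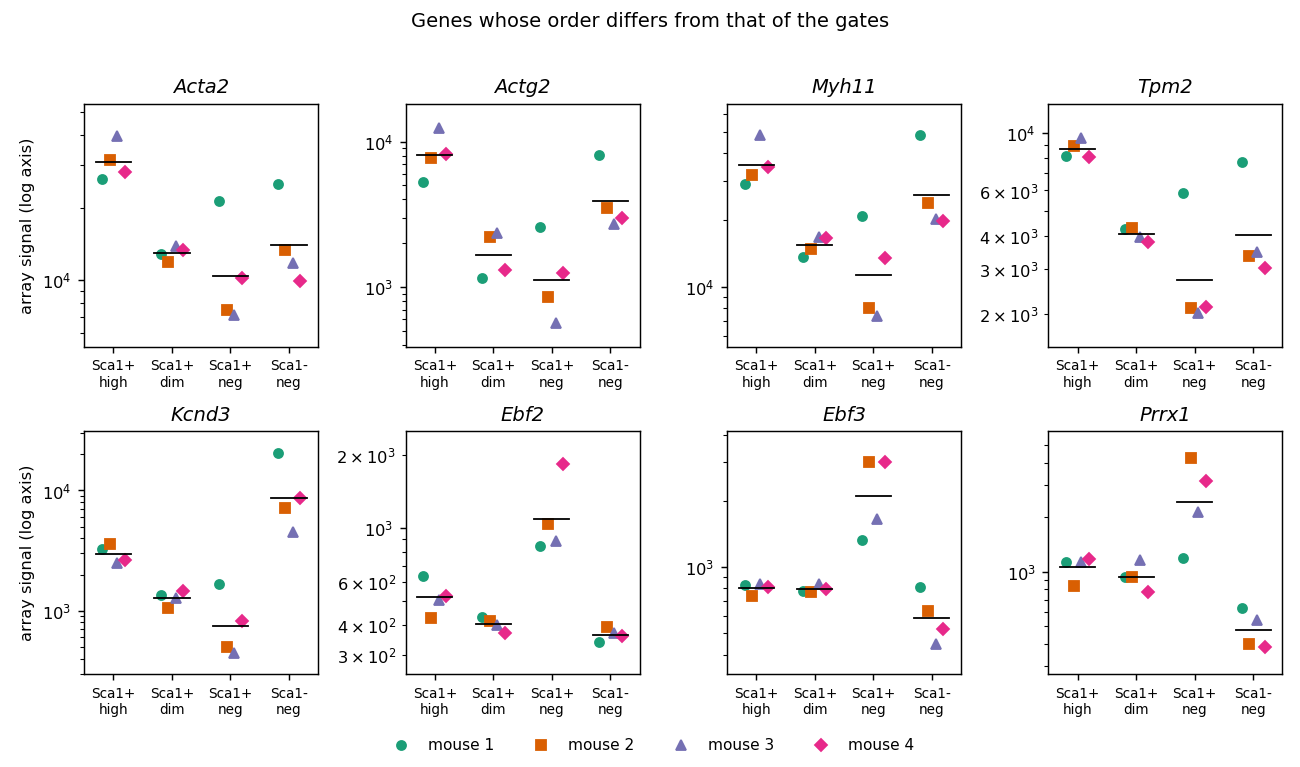
Signal (log axis) of Acta2, Actg2, Myh11, Tpm2, Kcnd3, Ebf2, Ebf3 and Prrx1 on each array, by population, with 1 marker and colour per mouse and a black bar at the mean of the log2 signals. Sca1+ reporter-negative cells lie on average lowest for Actg2 and Kcnd3 and above reporter-high and Sca1- cells for Prrx1 (1186 to 4229), so these genes do not run in one direction from reporter-high to Sca1- cells.

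Further signalling lists were mixed. Of 20 guidance genes 11 were higher and 3 lower (median 0.66; 6 and 1 without mouse 2). Sema3f, a class 3 semaphorin, read 2549, 3199, 3037 and 2539 against 1006, 693, 764 and 530 (1.95 ± 0.20, adjusted p = 1.24e-05). Of 19 Notch genes 5 were higher and 5 lower (median -0.12), against shares of 19.2% and 16.7% among all genes. The counts were 3 and 2 without mouse 2, and 3 were lower without the Sca1- array of mouse 1. Under the hybridization scaling 12 were higher and 2 lower, and the median turned to 0.35. Notch4 (-1.14 ± 0.17, adjusted p = 0.000123) and Nrarp, a Notch target (-1.44 ± 0.21, adjusted p = 0.000132), were among the lower ones. Of 10 CCN and YAP target genes 6 were higher and 0 lower (median 0.69), including Ccn2, connective tissue growth factor, at 39506, 39542, 32025 and 40999 against 21141, 8077, 9842 and 8410 (1.80 ± 0.36, adjusted p = 0.00115).

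Of 19 retinoid and prostaglandin genes 4 were higher and 3 lower (median 0.19), close to the shares among all genes (19.2% and 16.7%). The higher count was 8 without mouse 1 and 7 with mouse as a block. Aldh1a2, which makes retinoic acid, read 8707, 11239, 9479 and 11026 against 4863, 2493, 2272 and 1841 (1.91 ± 0.26, adjusted p = 7.11e-05) and was called in the Sca1 step by nearly as much (1.71, adjusted p = 0.00131). Ptger2, a prostaglandin E2 receptor, was higher by 2.15 ± 0.30 (adjusted p = 8.8e-05) and not called in that step (0.41, adjusted p = 0.716). Of 13 crypt base and stem genes 3 were higher and 4 lower (median -0.05, turning to 0.42 with 7 higher and 3 lower under the hybridization scaling). Of 24 immediate early and dissociation genes, which rise when tissue is digested, 9 were higher and 3 lower (median 0.26). The higher count was 5 without mouse 2 or 3 and 14 with mouse as a block, and the lower count 1 without mouse 2. Junb differed by 0.91 ± 0.14 (adjusted p = 0.000151).

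**Figure D5:**
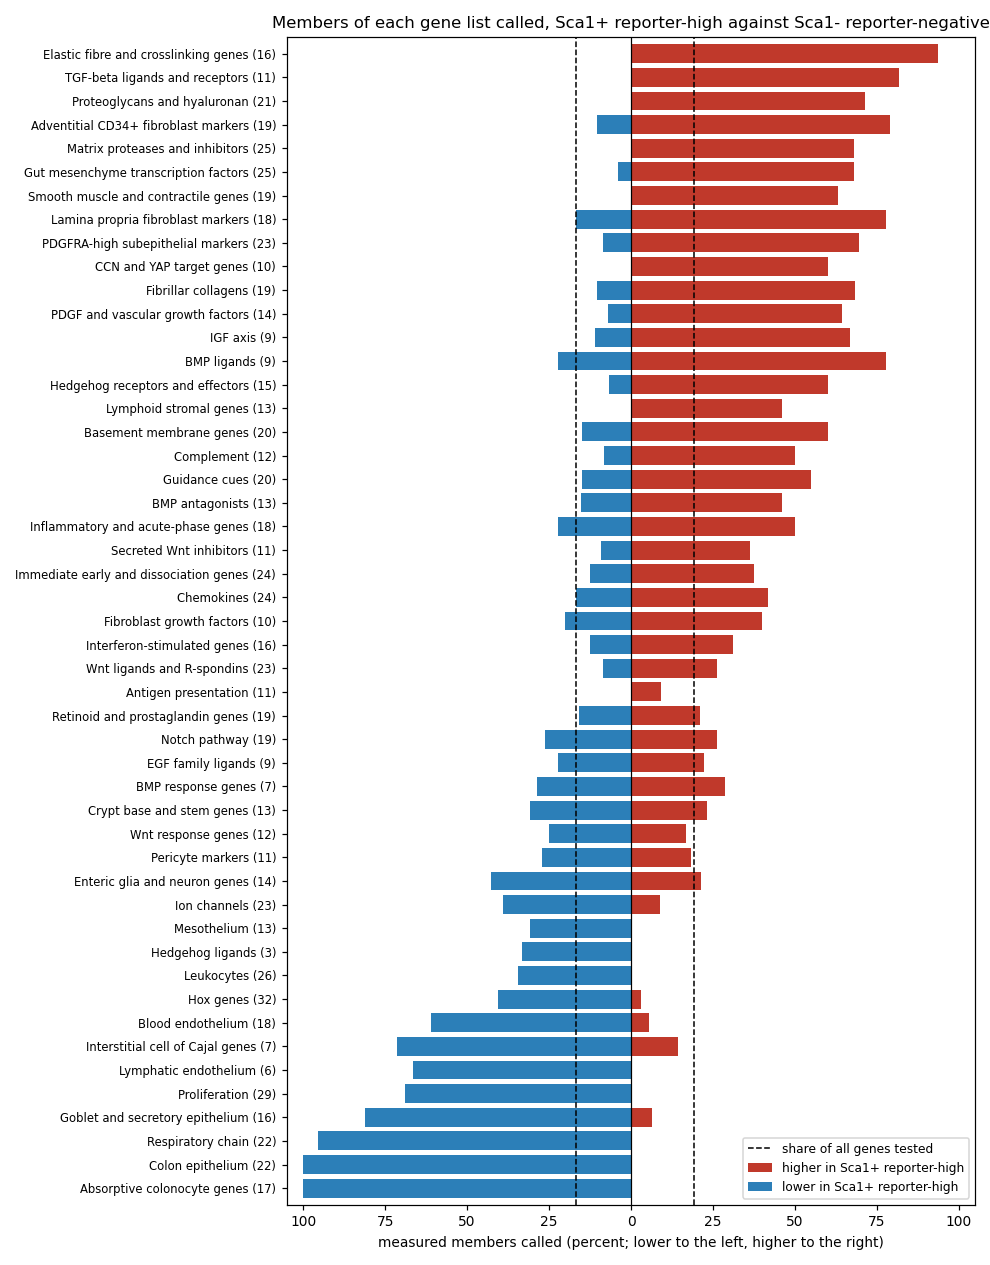
Percent of the measured members of each gene list called higher (right) or lower (left) in reporter-high than in Sca1- cells, with dashed lines at the shares among all 17097 genes (19.2% higher, 16.7% lower). Elastic fibre genes reach the highest share on the right (15 of 16), and colon epithelium (22 of 22) and absorptive colonocyte genes (17 of 17) the highest on the left.

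Among genes called against Sca1- cells both in reporter-high and in Sca1+ reporter-negative cells, 3 went in opposite directions: Hhip, Cyp1b1 and Saa3. Cyp1b1, a cytochrome P450, read 355, 371, 378 and 344 in reporter-high, 1082, 1586, 1663 and 1872 in Sca1+ reporter-negative and 788, 436, 562 and 509 in Sca1- cells. It was lowest in reporter-high and highest in Sca1+ reporter-negative cells (-0.63 ± 0.22, adjusted p = 0.036, and 1.44, adjusted p = 0.00156), and the first call was lost in 9 of 12 analyses that left out a mouse or an array, with adjusted p up to 0.11 without mouse 3. These 9 left out mouse 2, 3 or 4, any reporter-high array or the Sca1- array of mouse 1 or 3. Saa3, an acute-phase protein, read 648, 505, 788 and 754 against 1436, 1374, 1894 and 870 in Sca1- cells (-1.02 ± 0.30, adjusted p = 0.0162) and 2217, 2411, 6154 and 3301 in Sca1+ reporter-negative cells (1.27, adjusted p = 0.0387). The first of these calls was lost without mouse 2 (0.121), its reporter-high array alone (0.0552) or mouse 3's Sca1- array (0.0557). Cyp1b1 and Saa3 were named outside the rule.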

How the data were processed

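RNA of sorted colon fibroblasts, 4 populations of 4 mice, was hybridised to 16 1-colour Affymetrix arrays after amplification, per the labels' protocols. The submitters' processing notes name Affymetrix Expression Console 1.1; how probes were summarised, corrected and normalized is not given in the sources used here. Each deposited value is a score, its probe set being centred and scaled over the 16 arrays. For all 45141 probe sets the whole-number signals (58 to 155937) that give the deposited scores within 1e-09 were recovered, to a tolerance of 0.0001, in steps limited to 70000 and then 200000. The recovery was checked on 1000 simulated probe sets, and log2 signals were used instead of the scores.

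The platform table named 28898 probe sets by 1 gene symbol, 551 by several and 15588 by none; 28689 matched RefSeq, which changed 0 symbols. For the 7180 genes with more than 1 probe set the one of highest mean was used, and in 53 genes probe sets were called in opposite directions. limma 3.58.1 in R 4.3.3 fitted all 16 arrays with 1 mean per population (12 residual degrees of freedom), without a block, and p-values were adjusted by Benjamini and Hochberg over 17097 genes. The script was tested on simulated data. A bound for a gene at background was taken against each array's highest nonspecific control.

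Samples with the same number come from the same mouse by the labels. Deviations of same-numbered arrays of the compared groups correlated at 0.457, -0.377, 0.344 and 0.0291 in mice 1 to 4. Pairs of arrays with different numbers ran from -0.526 to 0.489, so same-numbered arrays were not set apart from the others. Mouse stands as the replicate, although the sex-linked genes of mouse 2 go against its label.

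The compared groups and gene lists were chosen with earlier results of these data known. Named genes were those of the gate, the 12 largest rises and falls, the 8 largest rises and falls called also in the Sca1 step, and up to 4 genes of each list. Alternatives covered the block, left-out mice and arrays, probe set choice, scaling, a filter on dim genes, the deposited scores and an epithelium covariate. Ly6a is named by no probe set. Promoters came from a RefSeq table on GRCm38.p6.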

Additional observations from a re-analysis of the deposited data

Results flagged for a closer look

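In 23 of 240 groups of 4 arrays, over the genes named with values above, 1 array stood apart by Dixon's criterion on the log2 signals; chance gives about 1 in 20. No explanation was tested.

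In 16 of these the array was the Sca1- array of mouse 1. It was the highest of its group for Pdpn (3878), Dcn (89414), Slc35f1 (4125), Tek (2478), Scara3 (1678), Osr1 (4124), Wnt5b (835) and Lama2 (14386). It was also highest for Gli2 (2796), Ebf1 (1315), Bmp4 (14693), Grem1 (4882), Tgfbr3 (14199) and C1ra (6475). It was the lowest of its group for Pof1b (3499) and Uqcrc2 (15968), an epithelial and a mitochondrial gene.

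Among reporter-high arrays, mouse 3 was highest for Kit (302) and Nrarp (947) and lowest for Ccn2 (32025). Mouse 2 was lowest for Nr2f1 (699) and Prrx1 (833), and mouse 4 highest for Wnt4 (8233) and Sostdc1 (459).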

How the results depend on the processing

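Mouse as a replicate block, which the shared mice of the labels call for, gave 6676 genes between reporter-high and Sca1- cells against 6143, and it ended no call of a gene named with values. In the Sca1 step it gave 635 against 419. Leaving out 1 mouse or array gave 3838 to 6856 genes in the main comparison, 133 to 789 in the Sca1 step and 2734 to 5636 with Sca1+ reporter-negative cells as the reference (5276). The lowest values were without mouse 2, mouse 4 and mouse 2. Scaling to hybridization controls gave 13375 in the main comparison and 11815 against Sca1+ reporter-negative cells. With the epithelium covariate the counts were 231 (2399 at an unadjusted p under 0.05), 681 and 0 by limma (1482 at an unadjusted p under 0.05), in the same order of comparisons with the Sca1 step second. A difference of at least 2-fold left 1643, 191 and 1230 genes, and an adjusted p under 0.01 left 219 in the Sca1 step and 3184 against Sca1+ reporter-negative cells. In the Sca1 step the 8 compared arrays alone gave 116 genes and the deposited scores 28. The cause was not tested, beyond fewer arrays and a stricter threshold by construction.

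With the epithelium covariate the direction turned for the called genes Epcam (0.033), Ptprc (0.034), Mki67 (0.083) and Lamb3 (0.027), and with the hybridization controls for Cdon (0.049) and Col3a1 (0.36). Col3a1 also turned with the probe set of largest variance (1.97) and the median of its probe sets (0.93). The hybridization controls also ended the calls of Ptprc, Etv1, Nkx3-2, Cyp1b1 and Saa3, the deposited scores those of Etv1, Kcnd3, Hhip, Cdon, Prrx1, Myl9, Cyp1b1 and Saa3, other probe sets those of Etv1 and Cyp1b1, and quantile normalization that of Cyp1b1 (adjusted p = 0.0524). Myh11 (0.91, adjusted p = 0.00668) and Actg2 (1.51, adjusted p = 0.00228) were called with the hybridization controls. Chosen after seeing the data were the block without mouse 2 (5153, 370 and 4505 genes) and leaving out mouse 2 with the Sca1- array of mouse 1 (4770, 384 and 3675). The highest nonspecific control on each array limits dim genes, and 2027 genes were at background in both groups.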

Other observations

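Genes of pancreatic acinar cells read high on some arrays of each population and were named after their values were seen. Amy2a5, Ctrb1 and Cela1 were not called in the main comparison but were called with the epithelium covariate (adjusted p = 0.0217, 0.0425 and 0.0425). Amy2a5, a pancreatic amylase, read 183, 176, 59245 and 2026 in reporter-high cells of mice 1 to 4 and 217, 54648, 7628 and 396 in Sca1- cells. In reporter-dim cells it read 186, 193, 81065 and 42119, and in Sca1+ reporter-negative cells 157, 42618, 76151 and 3560. Ctrb1, a chymotrypsinogen, read 680, 605, 35495 and 1329 in reporter-high and 626, 21355, 2655 and 664 in Sca1- cells. Both were high in mouse 3 reporter-high and mouse 2 Sca1- arrays and low in mouse 1 throughout. Cela1, an elastase, read 704, 840, 18339 and 1340 in reporter-high cells and 5330, 15792, 10568 and 10457 in Sca1- cells.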
